A study of Mus musculus with 11 samples.

Results

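The genes described here are 10 aldehyde dehydrogenases measured in mouse liver, *Aldh3a2* and 9 further genes of its family (*Aldh1a1*, *Aldh1a7*, *Aldh1b1*, *Aldh1l1*, *Aldh2*, *Aldh4a1*, *Aldh6a1*, *Aldh8a1* and *Aldh9a1*). They were taken by symbol from the deposited count table, where they are 10 of 13669 genes. All 10 passed the filter on low counts (over 10 reads in 5 or more livers) and are among the 13334 genes tested. The set was built around *Aldh3a2* because its own reads were higher with the decoy in these livers, so the values of *Aldh3a2* were selected on this contrast and are given as a description with no test. The question is whether the other members were higher too.

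The livers came from male wild-type (WT) C57BL/6J mice on regular chow. Every animal received a recombinant AAV8 vector through the tail vein, and in both groups the vector's insert was driven by LP1, a liver-specific promoter. AAV-TuD carried a tough decoy, an RNA hairpin with binding sites for miR-541 and miR-379, and AAV-NC a negative control sequence. The groups hold 6 AAV-TuD livers (TuD 3, 4, 5, 9, 10 and 11) and 5 AAV-NC livers (NC 1, 2, 6, 7 and 8), numbered as in their labels. The mice were killed after a few hours of fasting, some weeks to months after the vector. They had been obtained young and acclimated for some weeks, and the methods do not give the age or the time since the vector for these livers in particular. The labels do not tie the livers to cages or days, so p-values measure the spread between these 11 samples.

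Aldehyde dehydrogenases use NAD or NADP to oxidise aldehydes to carboxylic acids. The liver is a main site of this chemistry, since fat breakdown, alcohol, vitamin A, folate and several amino acids all give rise to aldehydes. *Aldh3a2* encodes the fatty aldehyde dehydrogenase of the endoplasmic reticulum and peroxisome, which turns long-chain aldehydes from fatty alcohols, sphingolipids, ether lipids and phytol into fatty acids, and whose loss in humans causes Sjögren-Larsson syndrome.

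The decoy binds a microRNA by its sequence, so the mature sequences of its targets are shown with the seed (bases 2 to 8, in capitals), the stretch that pairs with a messenger. Both come from RefSeq on GRCm38.p6, and both genes lie on the plus strand of chromosome 12.
mmu-miR-379-5p (chr12:109709065-109709085): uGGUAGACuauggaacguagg
mmu-miR-541-5p (chr12:109742422-109742446): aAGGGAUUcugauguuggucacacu
The 3′ untranslated region of each gene, taken as the longest annotated one, was searched for the 7 bases complementary to the seed. A complement of the miR-379-5p seed (GTCTACC) was found in none of the 10 genes, against 5.20% of 10928 genes with such a region. A complement of the miR-541-5p seed (AATCCCT) was found in *Aldh6a1* alone, at bases 135 to 141 of a region of 1727 bases, against 8.95% of the same genes. It is printed with its surroundings, the match in capitals.
*Aldh6a1*, miR-541-5p: tcagaactctcAATCCCTtcaaagttgta
Thus *Aldh3a2* held neither match, in any of its 4 coding transcripts. Because other microRNAs of the same cluster were also measured in the study, miR-382-5p, miR-134-5p and miR-409-5p were searched too, together with miR-409-3p, the other arm of that hairpin, which was not among them. *Aldh3a2* held 1 match, to miR-134-5p (CAGTCAC, present in 12.4% of genes), in 3 of the 4 coding transcripts. *Aldh1a7* held the same 7 bases.
*Aldh3a2*, miR-134-5p: agagcatcttgCAGTCACagctgttcctg
*Aldh1a7*, miR-134-5p: tacatctcataCAGTCACcagaaagtggt
*Aldh9a1* and *Aldh6a1* held this match as well, once and at 2 places, and neither passed the test below. Outside the 10 genes, *Aldh7a1* of the same family held it too. *Aldh9a1* also held a match to miR-409-5p (present in 4.35% of genes), *Aldh1b1* one to miR-382-5p (10.9%) and *Aldh1l1* one to the other arm, miR-409-3p (9.86%). A match is a description of letters and was not tested as a binding site.

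Levels are given as counts per total reads on the usual CPM scale after TMM scaling (a per-library factor that sets the bulk of genes to no change). The libraries read transcripts from their 3′ ends, so the number of reads does not grow with transcript length. CPM may be set side by side between genes as far as length goes, while other differences between genes in capture or counting remain. *Aldh3a2* lies on the minus strand of chr11:61223417-61267464 (GRCm38). Its level was 58.1 CPM in NC 1, 38.8 in NC 2, 35.6 in NC 6, 32.5 in NC 7 and 31.4 in NC 8. In the AAV-TuD livers it was 51.1 in TuD 3, 76.0 in TuD 4, 63.3 in TuD 5, 64.9 in TuD 9, 59.5 in TuD 10 and 59.8 in TuD 11. The groups overlapped through 1 library, NC 1, which lay above TuD 3 and far above the other AAV-NC livers, and 5 of the 6 AAV-TuD livers exceeded every AAV-NC liver. The means were 39.3 ± 10.9 CPM (SD, n = 5) and 62.4 ± 8.19 CPM (SD, n = 6), a fold of 1.59 and a log2 fold change of 0.67 (SE 0.14). Without NC 1 the log2 fold change was 0.85. The depth behind these values was 260 to 834 reads of *Aldh3a2* per library. Its 4 coding transcripts end at 3 different places and encode 532, 487, 484 and 127 residues, and the table sums them into 1 value per gene.

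**Figure D1:**
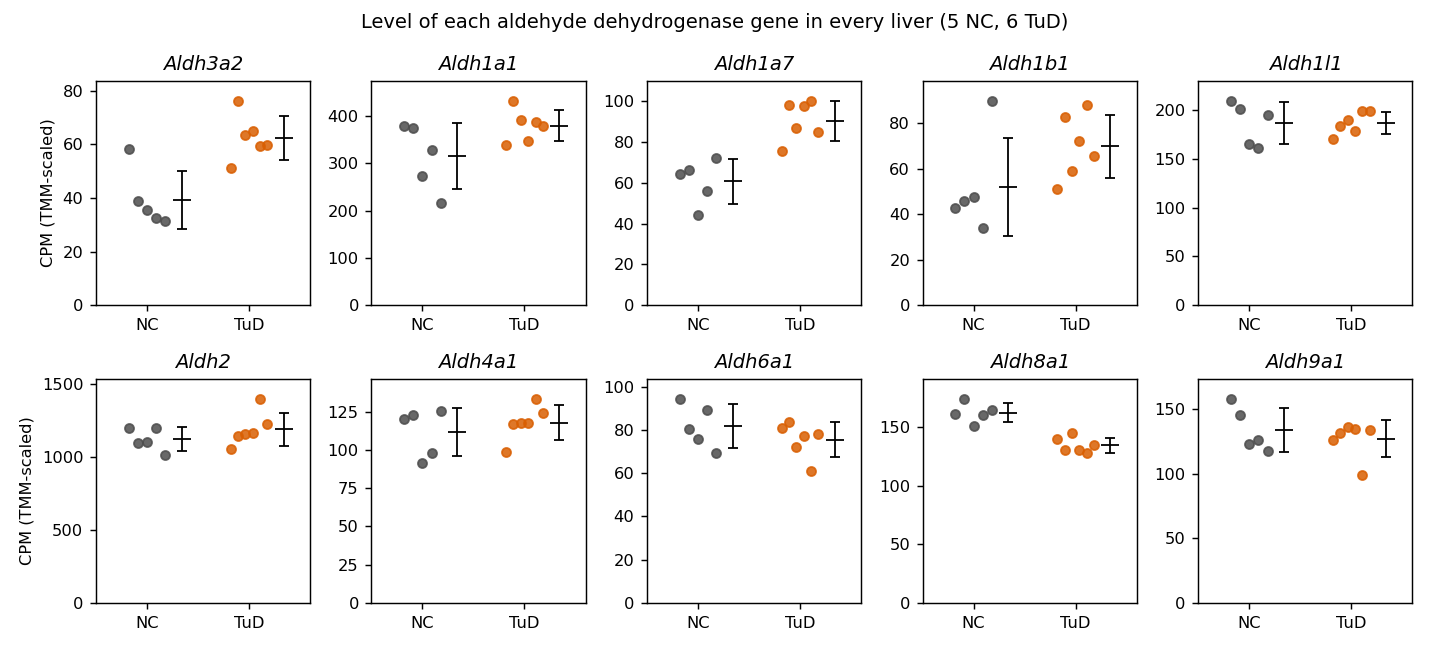
Level of each of the 10 genes in every liver, in TMM-scaled CPM on axes that start at 0; dots are livers in the order of their numbers, and bars show the mean and SD of 5 NC and 6 TuD livers. *Aldh1a7* and *Aldh8a1* are the only panels in which the groups do not overlap, in opposite directions, and in the *Aldh3a2* panel NC 1 at 58.1 CPM lies among the TuD livers.

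Few of the other members passed the test. Over all 13334 genes, edgeR's quasi-likelihood test at an adjusted p under 0.05 called 966 higher with AAV-TuD (7.24%) and 577 lower (4.33%). Of the 9 other members, 1 was called higher (*Aldh1a7*), 1 lower (*Aldh8a1*) and 7 were not called. The log2 fold change was above 0 for 6 of the 9 and below 0 for 3, with a median of 0.08 beside -0.00 over all tested genes. The groups did not overlap for 548 of all genes with AAV-TuD on top (4.11%) and for 437 with AAV-NC on top (3.28%), and among the 9 members this held for *Aldh1a7* and *Aldh8a1* respectively. With 9 members, 1 call in each direction is near those shares of all genes and is no result about the family.

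*Aldh1a7* rose with AAV-TuD. It encodes a cytosolic enzyme of the retinaldehyde dehydrogenase subfamily, found in rodents beside *Aldh1a1*. It was at 64.1 CPM in NC 1, 66.3 in NC 2, 44.2 in NC 6, 56.1 in NC 7 and 72.2 in NC 8, against a lowest value of 75.3, a median of 92.0 and a highest value of 99.8 in the AAV-TuD livers. All 6 AAV-TuD livers thus exceeded every AAV-NC liver, although TuD 3 and NC 8 lay close to each other. The means were 60.6 ± 10.9 (SD, n = 5) and 90.3 ± 9.71 CPM (SD, n = 6), a fold of 1.49 and a log2 fold change of 0.58 (SE 0.11, edgeR adjusted p = 0.0052). It was called under all 20 alternatives, with adjusted p from 0.000138 to 0.015.

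*Aldh1a1*, the retinaldehyde dehydrogenase that makes retinoic acid and also takes lipid aldehydes, is the nearest relative of *Aldh1a7* and lies in the same stretch of chromosome 19, at chr19:20492715-20643465 beside chr19:20692953-20727562. Their proteins were 90.6% identical over 501 residues. The last 500 transcript bases, which these libraries read, were 79.9% identical over an alignment of 513 bases. How reads that fit both genes were counted is not given in the sources used here. *Aldh1a1* stood at 380, 376, 274, 328 and 216 CPM in NC 1, 2, 6, 7 and 8, and between 339 and 431 CPM (median 384) in the AAV-TuD livers. The AAV-NC livers spread widely, with NC 1 and NC 2 inside the AAV-TuD range and NC 8 far below it. The means of 315 ± 69.8 (SD, n = 5) and 380 ± 33.2 CPM (SD, n = 6) gave a log2 fold change of 0.27 (SE 0.13), which did not pass the test (edgeR adjusted p = 0.185). NC 8 had the lowest *Aldh1a1* and the highest *Aldh1a7* of its group.

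*Aldh8a1* fell. It encodes 2-aminomuconic semialdehyde dehydrogenase, an enzyme of tryptophan breakdown downstream of kynurenine that was first described as acting on retinaldehyde. Its level was 162 CPM in NC 1, 174 in NC 2, 151 in NC 6, 161 in NC 7 and 165 in NC 8, and the AAV-TuD livers ran from 128 to 145 with a median of 133. No AAV-TuD liver reached the lowest AAV-NC liver, and the spread within each group was small. The means were 163 ± 8.25 (SD, n = 5) and 135 ± 6.42 CPM (SD, n = 6), a fold of 0.829 and a log2 fold change of -0.27 (SE 0.06, edgeR adjusted p = 0.0116). It was called under 19 of 20 alternatives. Scaled by library size alone, where the median of all genes was 0.23, its log2 fold change was -0.05 (adjusted p = 0.882), which is -0.28 relative to that median.

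The mitochondrial enzymes came next. *Aldh2*, the main acetaldehyde dehydrogenase, was the most abundant member by far, with 1122 ± 79.4 CPM (SD, n = 5) in AAV-NC and 1189 ± 114 CPM (SD, n = 6) in AAV-TuD livers. It was at 1199.8, 1097, 1099.6, 1200.3 and 1013 CPM in NC 1, 2, 6, 7 and 8, and between 1057 and 1395 CPM (median 1158) in the AAV-TuD livers. The ranges overlapped, with TuD 10 the highest of all livers, and the log2 fold change of 0.08 (SE 0.09) did not pass the test (adjusted p = 0.603). *Aldh1b1*, its closest relative among the 10 genes at 72.3% protein identity, is also mitochondrial and acts on acetaldehyde and retinaldehyde.

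*Aldh1b1* turned on a single library. It measured 42.7, 45.8, 47.4 and 34.05 CPM in NC 1, 2, 6 and 7 but 89.5 CPM in NC 8, which is above all 6 AAV-TuD livers (51.3 to 87.9, median 68.9). The 4 other AAV-NC livers all lay below the lowest AAV-TuD liver. With all livers the log2 fold change was 0.42 (SE 0.20, adjusted p = 0.202). Without NC 8 it was 0.72 (adjusted p = 0.00694), and the number of other members called higher became 2.

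*Aldh4a1* catalyses the last step of proline breakdown to glutamate. It was at 120, 123, 91.6, 98.1 and 125 CPM in NC 1, 2, 6, 7 and 8, and between 98.5 and 133 CPM (median 118) in the AAV-TuD livers, so that NC 6, NC 7 and TuD 3 lay at the lower end and the groups overlapped. The means were 112 ± 15.6 (SD, n = 5) and 118 ± 11.4 CPM (SD, n = 6), a log2 fold change of 0.08 (SE 0.10, adjusted p = 0.659). *Aldh6a1*, the methylmalonate semialdehyde dehydrogenase of valine and thymine breakdown, was at 94.2, 80.3, 75.6, 89.0 and 69.4 CPM in NC 1, 2, 6, 7 and 8. In the AAV-TuD livers it lay between 60.9 and 83.7 CPM (median 77.5), with TuD 10 below every AAV-NC liver and the others within their range. The means were 81.7 ± 9.996 and 75.5 ± 8.14 CPM, a log2 fold change of -0.11 (SE 0.09, adjusted p = 0.489). Neither passed the test, and in both the groups overlapped. *Aldh6a1* overlaps *Bbof1* on the opposite strand, and whether the counting used strand is not given in the sources used here. It is the only member with a match to the miR-541-5p seed, shown above.

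Among the cytosolic enzymes, *Aldh1l1*, which oxidises formyl-tetrahydrofolate and is abundant in hepatocytes, had the smallest difference of the 10. It was at 209, 201, 166, 162 and 195 CPM in NC 1, 2, 6, 7 and 8, and between 170 and 199 CPM (median 187) in the AAV-TuD livers, which all lay inside the AAV-NC range. The means were 186 ± 21.5 (SD, n = 5) and 187 ± 11.5 CPM (SD, n = 6), a log2 fold change of 0.00 (SE 0.08, adjusted p = 0.986). *Aldh9a1*, which oxidises trimethylaminobutyraldehyde on the way to carnitine, was at 158, 145, 123, 126 and 118 CPM in NC 1, 2, 6, 7 and 8 and had an AAV-TuD median of 133 CPM. The means were 134 ± 16.8 and 127 ± 14.3 CPM, a log2 fold change of -0.08 (SE 0.10, adjusted p = 0.671). In TuD 10 it was at 98.7 CPM, below the 5 other AAV-TuD livers, which lay between 126 and 136 CPM.

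**Figure D2:**
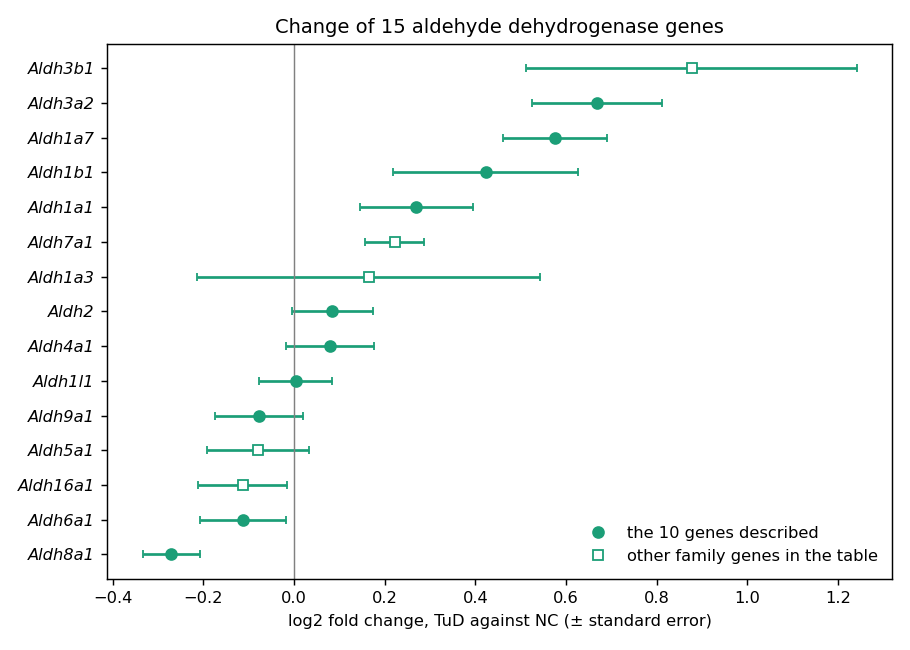
Log2 fold change of AAV-TuD against AAV-NC for the 15 aldehyde dehydrogenase genes in the table, with bars of 1 standard error from edgeR; filled circles are the 10 genes described and open squares the 5 others. *Aldh3b1* (0.88, with the widest of the upper bars), *Aldh3a2* (0.67) and *Aldh1a7* (0.58) stand at the upper end, *Aldh8a1* (-0.27) at the lower end, and most genes lie near 0.

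The reads of the 10 genes together made up 2265 ± 166 CPM (SD, n = 5) in AAV-NC and 2433 ± 151 CPM (SD, n = 6) in AAV-TuD livers, with overlapping ranges. Within this sum, *Aldh2* took 49.6% ± 2.57 and 48.8% ± 2.18, and *Aldh1a1* 13.8% ± 2.24 and 15.6% ± 1.07. *Aldh3a2* took 1.72% ± 0.361 in AAV-NC and 2.57% ± 0.303 in AAV-TuD livers, a small part of the family in both. *Aldh8a1* fell from 7.20% ± 0.506 to 5.56% ± 0.55, with all 6 AAV-TuD livers below every AAV-NC liver. These shares need no scaling between libraries, since each is taken within 1 liver.

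Of the rest of the family, 5 genes were in the table and 6 (*Aldh1a2*, *Aldh1l2*, *Aldh3a1*, *Aldh3b2*, *Aldh3b3* and *Aldh18a1*) were not found in it by symbol. *Aldh7a1*, which acts in lysine breakdown, was at 137 ± 9.49 (SD, n = 5) and 160 ± 6.90 CPM (SD, n = 6) and rose by a log2 fold change of 0.22 (SE 0.07, adjusted p = 0.0397), with all 6 AAV-TuD livers above every AAV-NC liver. This call was lost under 9 of 20 alternatives, which were library size alone and the removal of NC 1, NC 2, NC 6, NC 8, TuD 4, TuD 9, TuD 10 or TuD 11, and adjusted p ran from 0.0109 to 0.0992 over all 20. *Aldh7a1* overlaps *Phax* on the opposite strand. *Aldh3b1*, at 52.3% identity the protein nearest to *Aldh3a2* among these 15, was counted with only 2 to 19 reads per library. Its level was 0.665 ± 0.409 (SD, n = 5) and 1.26 ± 0.359 CPM (SD, n = 6), with a log2 fold change of 0.88 (SE 0.36) that did not pass the test (adjusted p = 0.136). Without NC 8 it was 1.28 (adjusted p = 0.0444). *Aldh1a3* (log2 fold change 0.16, adjusted p = 0.836, 4 to 19 reads), *Aldh5a1* (-0.08, adjusted p = 0.714) and *Aldh16a1* (-0.11, adjusted p = 0.509) did not pass the test either. The last 500 transcript bases of *Aldh16a1* matched 278 other genes at 85% identity or more over at least 100 bases. For the other family genes in the table this number was 0. How reads that fit several genes were counted is not given in the sources used here. By contrast with *Aldh3b1*, the 9 other members shared between 24.0% and 31.5% of aligned residues with *Aldh3a2*.

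The neighbours of *Aldh3a2* on chromosome 11 were read from the same fit, 3 tested genes on each side. None of the 6 was called. *Epn2*, at a distance of 249785 bases, had a log2 fold change of 0.31 (SE 0.10, adjusted p = 0.0649), with all 6 AAV-TuD livers above every AAV-NC liver. *Map2k3*, on the other side, had -0.23 (SE 0.09, adjusted p = 0.094) and was called lower only without TuD 5 (-0.27, adjusted p = 0.0483). *Slc47a1* (0.03), *Usp22* (0.07) and *Rps13-ps5* (0.00) lay near 0, and *Fam83g* (-0.26, SE 0.26) was counted with few reads.

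Likeness to *Aldh3a2* was measured as Pearson's r of log2 CPM over the 11 livers among the 8371 genes that averaged 50 reads or more, and is given as a description, since all points share the group difference. The 5 most alike were *Akr1b1* (r 0.937, rho 0.882), *Tbl1xr1* (r 0.935, rho 0.964), *H3f3b* (r 0.929, rho 0.900), *Ucp2* (r 0.927, rho 0.900) and *Lyplal1* (r 0.925, rho 0.855). *Akr1b1* encodes aldose reductase, which reduces sugars and lipid aldehydes to alcohols, *Ucp2* a carrier of the inner mitochondrial membrane, *Tbl1xr1* a subunit of nuclear receptor corepressor complexes and *H3f3b* a histone. With the group means removed, r was between 0.774 and 0.847 for these 5. They were picked by r over the same livers, so this is no separate check of their likeness. Within the family, *Aldh1a1* (r 0.780, rank 220) and *Aldh1a7* (r 0.769, rank 246) were the members most like *Aldh3a2*. With the group means removed, r was 0.682 for *Aldh1a1*, 0.619 for *Aldh9a1*, 0.512 for *Aldh1l1*, 0.482 for *Aldh6a1* and only 0.298 for *Aldh1a7*, and for *Aldh8a1* it moved from -0.758 to -0.098. The likeness of *Aldh1a7* and *Aldh8a1* to *Aldh3a2*, in either direction, therefore lay mostly between the groups.

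**Figure D3:**
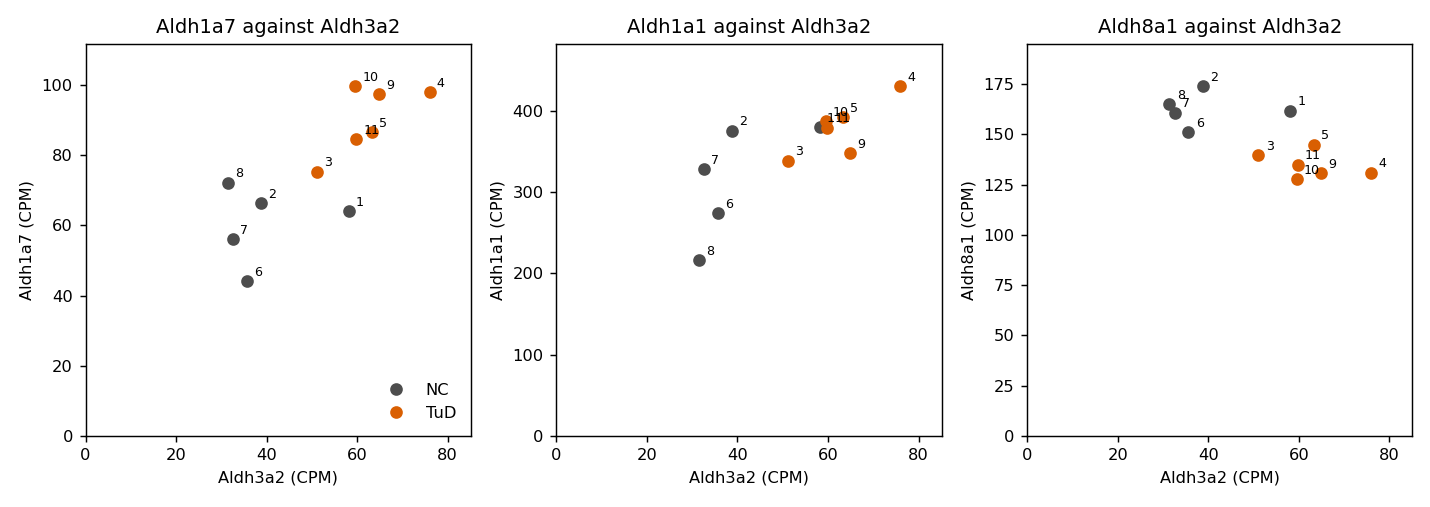
Level of *Aldh1a7*, *Aldh1a1* and *Aldh8a1* against that of *Aldh3a2* in each liver, in TMM-scaled CPM; grey dots are NC and orange dots TuD livers, marked by number. NC 1 lies with the TuD livers for *Aldh3a2* (58.1 CPM) and *Aldh1a1* (380 CPM), and with the NC livers for *Aldh1a7* (64.1 CPM) and *Aldh8a1* (162 CPM).

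The other genes of each member's pathway were counted in lists chosen by function, to be read beside the 7.24% of all genes called higher and 4.33% called lower. Of 22 genes that make or release fatty aldehydes or supply them to *Aldh3a2*, 1 was called higher (4.55%) and 4 lower (18.2%), with a median log2 fold change of -0.15. *Sgpl1*, the sphingosine-1-phosphate lyase that yields hexadecenal, fell from 34.3 ± 2.56 (SD, n = 5) to 26.1 ± 3.32 CPM (SD, n = 6), by 0.40 on the log2 scale (adjusted p = 0.0132). *Cyp4f14* (-0.39, adjusted p = 0.00521), *Cyp4f13* (-0.40, adjusted p = 0.00916) and *Cyp4f15* (-0.26, adjusted p = 0.0416), which oxidise fatty acids and eicosanoids at the tail, fell as well. *Cyp4f15* was called under 8 of 20 alternatives and the other 3 under 19, all but library size alone. The one that rose, *Cyp4f16* (1.83, adjusted p = 0.00384), was counted with 2 to 26 reads per library, and 6 alternatives that removed AAV-TuD livers left it under the read filter.

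Of 27 genes of retinoid metabolism, 4 were called higher (14.8%) and 2 lower (7.41%), with a median of -0.15. *Rdh10*, which makes retinaldehyde from retinol, rose from 6.86 ± 0.842 (SD, n = 5) to 14.1 ± 2.20 CPM (SD, n = 6), a log2 fold change of 1.02 (adjusted p = 0.000252). *Lrat* (0.96, adjusted p = 0.0016) and *Dhrs9* (1.16, adjusted p = 0.00785) rose too, and these 3 were called under every one of the 20 alternatives. *Lrat*, which esterifies retinol for storage, is also on the stellate cell marker list below. *Rdh7* (-0.35, adjusted p = 0.0043) and the esterase *Ces1f* (-0.46, adjusted p = 0.0141) fell, each called under 19 of 20 alternatives. *Rdh7*, at 561 ± 30.0 and 439 ± 19.9 CPM, was far more abundant than *Rdh10*, *Lrat* and *Dhrs9*.

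Of 15 genes of the kynurenine and NAD pathway, in which *Aldh8a1* acts, none was called higher and 2 were called lower (13.3%), with a median of -0.04. These were *Haao* (log2 fold change -0.29, SE 0.06, adjusted p = 0.00986), which makes the intermediate upstream of quinolinate and of the *Aldh8a1* branch, and *Kynu* (-0.37, SE 0.09, adjusted p = 0.0139), the kynureninase. *Haao* was at 247 ± 8.88 (SD, n = 5) and 203 ± 12.2 CPM (SD, n = 6), with all 6 AAV-TuD livers below every AAV-NC liver, the same layout as *Aldh8a1*. *Kynu* lost its call with library size alone and without the 3 livers richest in major urinary protein (*Mup*) reads, and *Haao* with library size alone.

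Other pathways of the members held few calls. Of 30 folate genes, the pathway of *Aldh1l1*, 2 were called lower (6.67%). *Gcsh* of the glycine cleavage system (-0.29, adjusted p = 0.019) and *Ftcd* of histidine breakdown (-0.25, adjusted p = 0.0364) fell. *Gcsh* was called under 18 of 20 alternatives, not with library size alone or without NC 1, and *Ftcd* under 9. Of 14 proline and hydroxyproline genes, the pathway of *Aldh4a1*, 2 were called higher (14.3%) and none lower. *Hoga1*, the aldolase of hydroxyproline breakdown (0.35, adjusted p = 0.0279), and *Oat*, ornithine aminotransferase (0.53, adjusted p = 0.0417), rose, called under 14 and 13 of 20 alternatives. Of 27 genes of valine and branched-chain amino acid breakdown, the pathway of *Aldh6a1*, only *Dbt*, a subunit of the branched-chain keto acid dehydrogenase, rose (0.22, adjusted p = 0.0493), under 4 of 20 alternatives. None of 7 ethanol genes, with *Aldh2*, and none of 6 carnitine synthesis genes, with *Aldh9a1*, was called, and in the carnitine list none of the 6 had a log2 fold change above 0. Of 27 other carbonyl-metabolising enzymes, 1 was called higher (3.70%) and 3 lower (11.1%). *Akr1b1* rose from 4.44 ± 1.52 (SD, n = 5) to 8.74 ± 2.09 CPM (SD, n = 6), a log2 fold change of 0.98 (adjusted p = 0.00895). The hydroxysteroid dehydrogenase *Akr1c14* (-0.66, adjusted p = 0.00673), the methylglyoxal enzyme *Glo1* (-0.29, adjusted p = 0.022) and the aldehyde reductase *Akr7a5* (-0.27, adjusted p = 0.0499) fell. *Akr1b1* and *Akr1c14* were called under all 20 alternatives, *Glo1* under 14 and *Akr7a5* under 7.

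Markers of several cell types moved between the groups, and their part in the results above was not tested. Their counts are to be read beside the 7.24% of all genes called higher and 4.33% called lower. In whole liver, fewer cells of a type and less RNA per cell cannot be told apart. Of 18 stellate cell markers 12 were called higher (66.7%) and none lower. Their summed level was 302 to 370 CPM in AAV-NC and 506 to 666 CPM in AAV-TuD livers, with most reads in *Dcn* and *Ecm1*. Of 13 cholangiocyte markers listed, 11 were in the deposited counts and 8 passed the filter. Of these 8, 7 were called higher (87.5%, at 93.6 to 136 and 164 to 208 CPM, most reads in *Cdh1* and *Sox9*). Of 16 Kupffer cell markers 9 were called higher (56.25%, at 251 to 327 and 274 to 606 CPM, most reads in *Slc40a1* and *Mrc1*). The deposited counts held 5 of 13 neutrophil and monocyte markers, with 4 called higher (80%, at 28.0 to 43.7 and 46.3 to 108 CPM, most reads in *Lyz2* and *Cybb*). Of 17 endothelial markers 2 were called higher (11.8%, at 472 to 539 and 509 to 555 CPM, most reads in *Maf* and *Ptprb*). That share is near the one over all genes and is no result about these cells. *Krt23*, *Epcam* and *Ccr2* averaged 0.60, 0.66 and 0.78 CPM in AAV-NC livers. No AAV-NC liver held over 10 reads of any of them, so these genes passed the read filter through AAV-TuD livers alone. Some alternatives that removed AAV-TuD livers left them under that filter. Their calls, counted above, are therefore no separate support for a rise. Without the 3 *Mup*-rich livers the neutrophil and monocyte count was 2 and the endothelial count 1, and without NC 6 or TuD 10 the endothelial count was 0. None of these lists held a marker called lower. The 2 markers named for each list have most reads, whether called or not. *Ecm1*, *Slc40a1*, *Mrc1* and *Ptprb* were not called, nor were *Alb* and *Apoa1* of the hepatocyte list below. In AAV-NC and AAV-TuD livers *Slc40a1* averaged 54.7 and 56.2 CPM, and *Mrc1* 45.8 and 47.1 CPM. No marker in the deposited counts could be at 0 in all livers, since every gene there has at least 10 reads in 5 livers. The tissue label was met, since the 15 hepatocyte markers summed to 50387 to 56743 CPM in AAV-NC and 57430.1 to 63999.8 CPM in AAV-TuD livers. Most reads lay in *Alb*, at means of 21096 and 28044 CPM, and in *Apoa1*, at 6741 and 5859 CPM. Of the 15, 1 was called higher (6.67%) and 2 lower (13.3%). The log2 fold change was above 0 for 5 of the 15, with a median of -0.08, so most markers did not share the higher sum.

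The libraries held 8148531 to 12043959 reads. *Mup* reads took 38.6% of NC 7, 30.9% of TuD 3 and 28.4% of TuD 5, against 8.09% to 18.7% in the other 8 livers, and TMM factors ran from 0.667 to 1.24. Without those 3 livers the log2 fold change was 0.67 for *Aldh3a2*, 0.62 for *Aldh1a7* (adjusted p = 0.00914) and -0.31 for *Aldh8a1* (adjusted p = 0.0191). The other 7 members stayed above the threshold there too, with adjusted p from 0.178 for *Aldh1b1* to 0.942 for *Aldh1l1*.

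**Figure D4:**
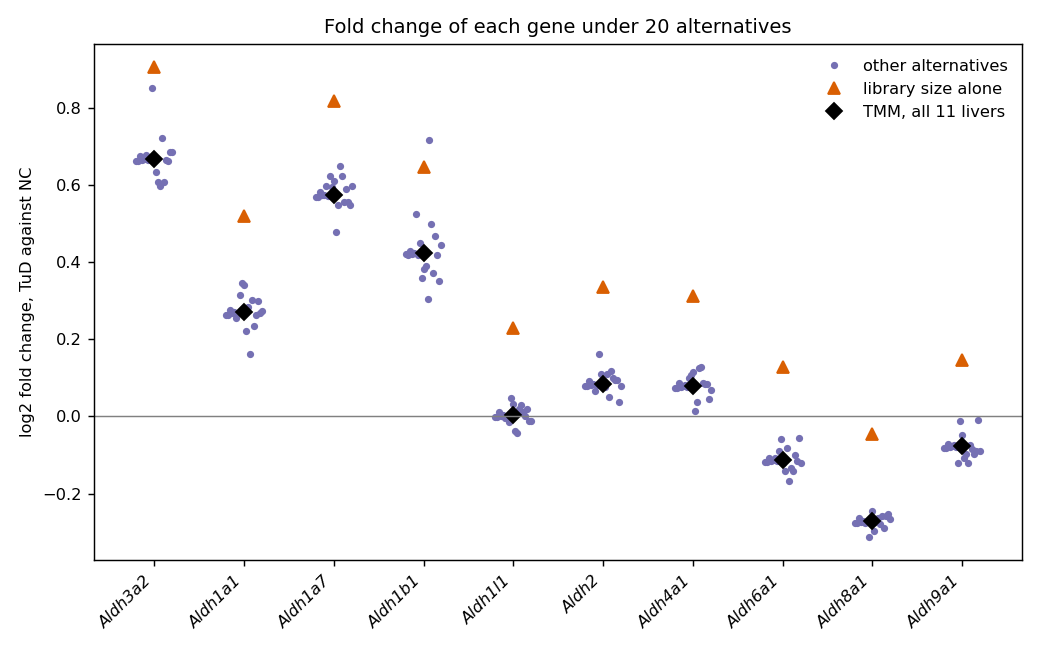
Log2 fold change of AAV-TuD against AAV-NC for the 10 genes under each setting; the diamond is the TMM-scaled value with all 11 livers, the triangle the value scaled by library size alone, and dots the other 19 alternatives. *Aldh3a2* stays between 0.60 and 0.91 and *Aldh1a7* between 0.48 and 0.82, and library size alone lifts every gene, with a median over all genes of 0.23.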

How the data were processed

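Total liver RNA was made into QuantSeq 3′ libraries. The authors used BBDuk for trimming, STAR (2.5.3a, per the submitters' processing notes) for alignment to GRCm38 and Rsubread for counting per gene, and deposited raw read counts of 13669 genes, replicates unpooled. The annotation and strand setting are not given in the sources used here. The authors tested with DESeq2 1.38.3.

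The 13334 genes above 10 reads in 5 livers or more were tested in R 4.3.3 with edgeR 4.0.16 (quasi-likelihood test, TMM factors, group as the only term), Benjamini-Hochberg adjustment over all tested genes and an adjusted p under 0.05. The standard error was the log2 fold change divided by the square root of F. The test was checked on simulated data. Alternatives were DESeq2 1.42.0, limma 3.58.1 (voom with quality weights), other scalings and filters, removal of the 50 genes with most reads or of 3 *Mup*-rich livers, and leaving out each liver. Of the gene IDs, 13658 matched GENCODE M21, which gave positions, untranslated regions and proteins. Identities came from Biopython 1.88 and BLAST 2.17.0.

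Members and lists were chosen with earlier results of these data known. Named were all family genes, the 3 tested genes on each side of *Aldh3a2*, the 5 genes most like it, the called genes of each pathway list (at most 8, by p, a few not reported here) and the 2 markers with most reads per marker list. Totals of 8148531 to 12043959 reads set the precision.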

Additional observations from a re-analysis of the deposited data

Results flagged for a closer look

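*Aldh9a1* in TuD 10 stood apart from its group. The gap between its log2 CPM and the next lowest AAV-TuD liver was 0.767 of the group's whole range, above Dixon's 95% critical value for 6 samples. It was 1 of 30 groups of values examined (the 15 family genes in each group), where chance at 1 in 20 gives 1.5.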

How the results depend on the processing

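Of 400 fold changes of single genes recomputed under the 20 alternatives, 363 kept their direction and their side of the threshold, 10 lost the call, 3 gained it and 24 changed sign. The number of the 9 other members called higher was 1 to 2 on leaving out 1 liver (2 without NC 8, the added gene being *Aldh1b1*), and the number called lower was 0 with library size alone, where 71 of all genes were called lower and 1386 higher (95.1% of calls, against 62.6%). Leaving out 1 liver, 337 to 714 of all genes were called lower. Library size alone, under which the median of all genes was 0.23, turned *Aldh6a1* (0.13), *Aldh9a1* (0.15), *Aldh5a1* (0.16) and *Aldh16a1* (0.14) above 0. Values near 0 changed sign, namely *Aldh1l1* with DESeq2 (-0.00219), its size factors (-0.0022), limma-voom (-0.0031) and without the 3 *Mup*-rich livers (-0.0143), and *Rps13-ps5* (-0.00177, -0.00178, -0.0403 and -0.0284). Leaving out 1 liver gave -0.0437 to 0.0472 for *Aldh1l1*, -0.0334 to 0.37 for *Aldh1a3*, -0.12 to 0.14 for *Rps13-ps5* and -0.0154 to 0.0845 for *Slc47a1*. The causes were not tested. No paired analysis was possible because the groups share no replicate number. Of 600 counts over lists 524 stayed within 1.5 times. All 110 shares moved by less than 1 SD on leaving out 1 liver. A mean cannot move further than that here, so this does not measure their stability. *Aldh3b1* and *Aldh1a3*, at 2 to 19 reads, are limited by depth.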
